A study of Mus musculus with 10 samples.

Results

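The Clca genes code for the calcium-activated chloride channel regulators, and 4 of them were followed in mouse pancreas: Clca3a1, Clca3a2, Clca1 and Clca2. They were chosen by gene symbol among 19938 genes, because Clca3a1 and Clca3a2 were known from an earlier look at these arrays to be among the largest differences between the groups. Their levels are therefore given as a description with no test. All 4 had 1 transcript cluster (the set of probes summarised to 1 value) carrying their symbol alone: 10502552 for Clca3a1, 10502565 for Clca3a2, 10502622 for Clca1 and 10502638 for Clca2. Clca3a1 and Clca3a2 are close relatives whose probes may not tell them apart, so the pair may be 1 signal read in 2 places.

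Clca proteins were first taken for chloride channels. They are now known as secreted or membrane-anchored proteins with a metalloprotease domain that cuts the protein itself, and some of them raise the chloride current of calcium-gated channels such as Ano1. Clca1, once called gob-5 in the mouse, is a product of mucus-secreting goblet cells, and Clca2 is known from stratified epithelia. Older names of the mouse genes overlap, and in the RefSeq gene table Clca1 is listed as a former name of Clca3a1 and Clca2 as a former name of both Clca3a2 and Clca1.

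The 10 samples were total RNA of whole pancreas of mixed strain background, 5 control and 5 DKO, on Affymetrix Mouse Gene 1.0 ST arrays. The DKO genotype in the labels is PDX1Cre, Mst1-/-, Mst2L/L. It joins a null allele of the hippo kinase gene Mst1 to a floxed Mst2 allele, removed where Cre is made from the Pdx1 promoter, a promoter that works early in the developing pancreas. Cells in which Cre never acted would lack Mst1 alone. The labels give the controls no genotype beyond the word control, and no age, and do not say that arrays of a group came from separate animals, so errors cover the spread between these samples, which may be technical. In whole tissue, fewer cells of a type and less RNA per cell cannot be told apart.

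The median log2 level of an array was 7.12 to 7.15 with all clusters counted, and pairs of arrays correlated across genes with r of 0.976 to 0.995. The acinar marker Cpa1, a carboxypeptidase, stood at 13.60 ± 0.01 in control and 13.56 ± 0.03 in DKO (log2 level, SD, n = 5 each). It is a single acinar gene, and the acinar list as a whole is given below. Stk4, which codes for MST1, was low and alike in both groups (5.01 to 5.23 in control, 5.07 to 5.21 in DKO), so it gave no check of the labels, and Stk3 (MST2) was not analysed here. Of the arrays, 3 control and 2 DKO were high in Xist, and sex-linked genes read 3.99 to 5.75 in arrays without them, which served as a guide to background. DKO replicate 1 stood apart in hepatocyte genes, with Alb at 13.40 against 8.54 to 10.86 in the other 9 arrays.

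The promoter of Clca3a1, the gene with the largest difference of the family, is shown from the RefSeq promoter table (GRCm38.p6). The line gives the 250 bases before its annotated start (chr3:144760978-144761227, minus strand), 5′ to 3′ and all in lower case, since none of the 3 motifs searched was found in it.
Clca3a1: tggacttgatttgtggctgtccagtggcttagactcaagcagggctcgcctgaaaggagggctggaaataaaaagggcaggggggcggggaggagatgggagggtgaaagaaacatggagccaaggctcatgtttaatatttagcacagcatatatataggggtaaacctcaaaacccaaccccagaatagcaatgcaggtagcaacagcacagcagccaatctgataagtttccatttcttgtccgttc
Motifs of 3 factors were looked for on both strands of this window. The core of TEAD factors, the DNA-binding partners of YAP and TAZ, spelled CATTCC, matched 0 times, and 12.6% of the 32851 windows of the table held it. An ATF4 composite element, TGATGNAA, also matched 0 times, against 3.45% of all windows. The AP-1 site TGANTCA matched 0 times too, against 6.75% of all windows. These counts say that the letters are not in this window and nothing of the factors.

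Clca3a1 stood at 7.72, 6.20, 6.27, 7.11 and 6.39 across control replicates 1 to 5 and at 9.36, 9.13, 9.26, 10.10 and 9.17 across DKO replicates 1 to 5 (deposited log2 levels). All 5 DKO arrays lay above all 5 control arrays, with a gap of 1.41 between the highest control and the lowest DKO array. The control arrays were spread, with replicates 1 and 4 above the other 3, and in DKO replicate 4 lay above the rest. Group means were 6.74 ± 0.66 and 9.40 ± 0.40 (SD, n = 5 each), a difference of 2.66 ± 0.30 (SE), or 6.34-fold. By size it was the 4th largest increase among the 19938 genes.

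Clca3a2 stood at 7.84, 6.49, 6.56, 7.22 and 6.42 across control replicates 1 to 5 and at 9.22, 9.32, 8.98, 10.10 and 9.24 across DKO replicates 1 to 5. Again the groups did not overlap, control replicates 1 and 4 were the higher controls and DKO replicate 4 the highest array. Means were 6.91 ± 0.61 and 9.37 ± 0.43 (SD, n = 5 each), a difference of 2.47 ± 0.29 (SE), or 5.52-fold, the 6th largest increase. The change of Clca3a1 exceeded that of Clca3a2 by 0.20 ± 0.10 (SE), and the pair correlated at r = 0.99 over the 5 control arrays and 0.90 over the 5 DKO arrays. A pair whose probes cross-react would also run in parallel, and how much each gene adds to the other's cluster was not tested.

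Clca1, the goblet cell member, was flat, at 5.77, 5.89, 5.78, 5.92 and 5.97 across control replicates 1 to 5 and 5.92, 5.89, 5.96, 5.79 and 5.72 across DKO replicates 1 to 5. The groups overlapped fully, and the means were 5.87 ± 0.09 and 5.85 ± 0.10 (SD, n = 5 each). The difference was -0.01 ± 0.06 (SE), with a 95% interval of -0.15 to 0.13. These levels, 5.72 to 5.97, lay at or just above the top of the background guide (5.75).

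Clca2, the member of stratified epithelia, stood at 4.97, 4.76, 4.91, 4.92 and 4.94 across control replicates 1 to 5 and at 5.09, 5.07, 4.87, 4.90 and 4.79 across DKO replicates 1 to 5. Every array lay inside the background range and the groups overlapped, with means of 4.90 ± 0.08 and 4.94 ± 0.13 (SD, n = 5 each). The difference was 0.04 ± 0.07 (SE), with a 95% interval of -0.11 to 0.20. For a gene read at background, an interval this narrow bounds the array signal and not the transcript.

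**Figure D1:**
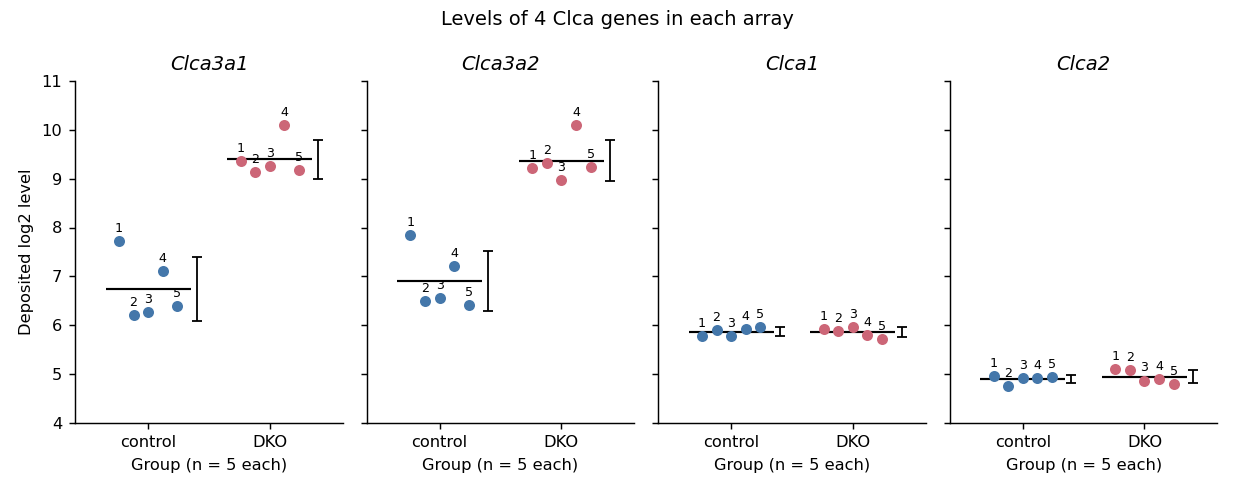
Deposited log2 level of Clca3a1, Clca3a2, Clca1 and Clca2 in each array, control in blue and DKO in red, numbered by replicate (n = 5 per group; line, mean; bar, SD). Clca3a1 and Clca3a2 lie between 6.20 and 7.84 in control and between 8.98 and 10.10 in DKO, while Clca1 and Clca2 overlap between groups.

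In all, 2 of the 4 genes had groups that did not overlap, with DKO higher. Over all 19938 genes 3.52% did so, but since the pair was picked for this difference nothing follows from the count. The scale used made little difference to the pair: Clca3a1 was higher by 2.62 and Clca3a2 by 2.43 after subtraction of array medians, and by 2.67 and 2.46 after quantile normalization again. Without DKO replicate 1, the array with hepatocyte transcripts, the differences were 2.68 and 2.50, and without DKO replicate 4, the highest array, 2.49 and 2.28. The sign of the small Clca1 difference turned on quantile normalization (0.02) and on leaving out single arrays (-0.04 to 0.02). With the Xist level as a covariate the differences of Clca3a1 and Clca3a2 were 2.66 and 2.47, and the highest control array of both, replicate 1, was low in Xist while the next, replicate 4, was high in it.

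The other 3 Clca genes of the same block had a cluster of their own, and none passed the limma test over all genes. Clca3b stood at 5.26 to 5.40 in control and 5.22 to 5.51 in DKO, a difference of 0.05 ± 0.06 (SE, limma adjusted p = 0.704). It lies next to Clca3a2 in gene order and stayed within the background guide in all 10 arrays. Clca4a, known from intestinal enterocytes, differed by -0.09 ± 0.07 (SE, adjusted p = 0.550), and Clca4b by -0.03 ± 0.06 (SE, adjusted p = 0.842). Clca4a read 5.10 to 5.39 in control and 5.00 to 5.23 in DKO, inside the background guide. Clca4b read 3.97 to 4.14 in control and 3.90 to 4.15 in DKO, at the low end of the guide or below it. A further cluster, annotated to Clca4b and Clca4a together, read 6.81 to 6.93 in control and 6.77 to 6.93 in DKO. Thus of 7 Clca genes measured singly, the pair at one end of the block was high in DKO, and the differences of the 5 others ran from -0.09 to 0.05 on the log2 scale. Those 5 read within, below or just above the background guide, so their differences bound the array signal and not the transcript. The sign of the Clca4b difference turned with quantile normalization (0.02).

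The order of genes in the RefSeq table (GRCm38.p6) places the Clca genes in an unbroken block on chromosome 3, and the 12 measured genes on each side were compared to see whether the change spread past the pair. Of these 24 neighbours 1 passed an adjusted p of 0.05, against 2.44% of all genes tested. It was Ccn1 (also called Cyr61), a secreted matricellular protein and a textbook target of YAP, the 4th gene beyond Clca2. Ccn1 stood at 8.39, 8.37, 8.53, 8.45 and 8.55 across control replicates 1 to 5 and 10.33, 10.10, 9.65, 9.73 and 9.62 across DKO replicates 1 to 5. The groups did not overlap, and Ccn1 was higher by 1.43 ± 0.13 (SE, limma adjusted p = 0.000336), a call that held under every alternative run. Its array pattern within groups was unlike that of Clca3a1 (r = -0.18 over the 10 deviations from group means), and DKO replicate 4 was not high in it.

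Between the high pair and Ccn1 lay 8 measured genes, namely the other 5 Clca genes and Odf2l, Col24a1 and Znhit6, and none of the 6 among them that were tested passed. Odf2l, a centriole-associated protein gene next to Clca2, differed by 0.09 ± 0.09 (SE, adjusted p = 0.650), and Col24a1, a fibrillar collagen gene, by -0.08 ± 0.08 (SE, adjusted p = 0.673). On the other side Sh3glb1, which codes for a membrane-curving endophilin and lies next to Clca3a1, differed by 0.02 ± 0.04 (SE, adjusted p = 0.854), and Selenof, a selenoprotein of the endoplasmic reticulum, by -0.06 ± 0.04 (SE, adjusted p = 0.543). Bcl10, an adaptor of NF-kappaB signalling 2 genes past Ccn1, was 0.29 ± 0.07 (SE) higher with groups that did not overlap and just missed the threshold (adjusted p = 0.0540). It passed under 4 of the alternatives, among them without DKO replicate 2 (0.0415) and without the dimmest 25% of genes (0.0470). Kyat3 (-0.34, adjusted p = 0.211) and Lmo4 (0.28, adjusted p = 0.296) each passed on leaving out 1 array, DKO replicate 1 for Kyat3 (0.0392) and control replicate 1 for Lmo4 (0.0342).

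**Figure D2:**
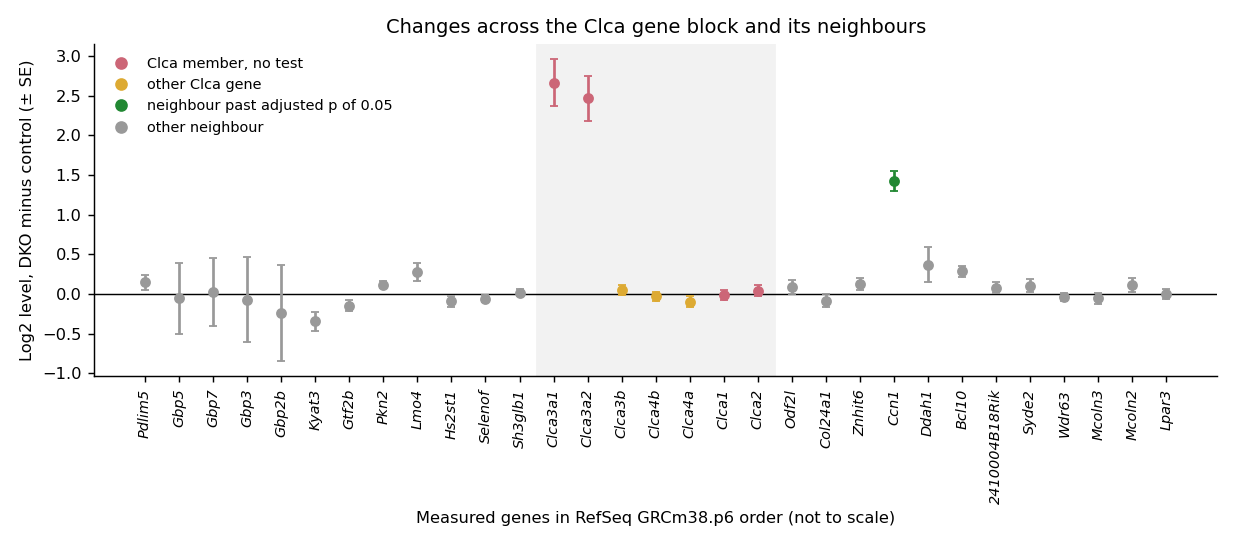
Log2 difference, DKO minus control, with SE, for the 7 measured Clca genes (shaded) and 12 measured genes on each side, in RefSeq gene order and not to scale. Clca3a1 (2.66), Clca3a2 (2.47) and Ccn1 (1.43) stand above genes that lie between -0.34 and 0.37.

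Clca proteins act on chloride channels, so the channels were read next. Of 15 measured calcium-activated chloride channel and related genes (anoctamins, bestrophins and the tweety family) 0 passed by limma over all genes, with 2 at an unadjusted p under 0.05, and the median change was -0.04, against -0.006 over all genes. Over all 19938 genes, 2958 had an unadjusted limma p under 0.05. Counts at this limit, here and in the lists below, are to be read beside that share. Ano1, the channel whose current Clca1 is known to raise, stood at 10.22 ± 0.12 in control and 10.11 ± 0.13 in DKO (SD, n = 5 each), a difference of -0.10 (adjusted p = 0.566, 95% interval -0.27 to 0.07). The 3 smallest p-values of the list belonged to Ttyh1 (-0.66 ± 0.20 SE, adjusted p = 0.134), Ano10 (0.21 ± 0.07 SE, adjusted p = 0.212) and the scramblase gene Ano6 (0.12 ± 0.07 SE, adjusted p = 0.426).

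Among 27 other chloride and bicarbonate transport genes 1 was called, against 2.08% of all genes called higher. Clcn2, a hyperpolarisation-activated chloride channel of epithelia, was 0.27 ± 0.06 (SE) higher (limma adjusted p = 0.0436). The call was fragile: it ended under 13 alternatives, among them subtraction of array medians (0.119), quantile normalization (0.105) and leaving out any of 8 single arrays (highest 0.116, without control replicate 2). Clic1, an intracellular chloride channel protein gene, was 0.33 ± 0.08 (SE) higher (adjusted p = 0.0516), and Cftr, whose product secretes chloride in ducts, 0.50 ± 0.14 (SE) higher (adjusted p = 0.113).

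Each Clca gene has a home tissue, and markers of those tissues were read. Counts past the test in this list and the lists below are to be read beside the share of all genes, 2.08% called higher and 0.366% called lower. Of 14 goblet cell genes 0 passed, with a median change of -0.12. An unadjusted limma p under 0.05 was met by 3, against 2958 of all 19938 genes. The mean level of the goblet list per array ran from 7.24 to 7.38 in control and 7.07 to 7.28 in DKO. The mucin Muc2 stood at 6.28 ± 0.15 and 6.20 ± 0.10 (SD, n = 5 each). The smallest p-values were those of Ang4 (-0.20, adjusted p = 0.124), Zg16 (-0.24, adjusted p = 0.136), which acinar cells also make, and Spdef (-0.16, adjusted p = 0.289). Of 12 squamous epithelium genes 0 passed by limma (2 at an unadjusted p under 0.05), with Krt5 at 5.97 ± 0.08 and 5.85 ± 0.13 (SD, n = 5 each). The list mean was 6.03 to 6.19 in control and 6.06 to 6.55 in DKO, and its smallest p-values were those of Sfn (0.51, adjusted p = 0.177), Sprr1a (1.25, adjusted p = 0.315) and Dsc3 (0.54, adjusted p = 0.381).

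Of 12 enterocyte genes 0 passed by limma and 0 had an unadjusted p under 0.05, and the intestinal phosphatase gene Alpi stood at 5.97 ± 0.09 and 5.88 ± 0.07 (SD, n = 5 each). Their list mean was 6.01 to 6.14 in control and 5.95 to 6.71 in DKO. The value of 6.71 is that of DKO replicate 1, the array high in hepatocyte genes. In that array Fabp1, a fatty acid binding protein gene of liver and gut, read 8.75 against 3.99 to 4.91 in the other 9. The apolipoprotein gene Apoa4 read 9.38 there against 6.51 to 7.05, and Fabp2 read 6.27 against 4.27 to 4.42. Of 11 gastric genes 2 fell, against 0.366% of all genes: the gland mucin gene Muc6 (-0.39 ± 0.07 SE, adjusted p = 0.0210) and the trefoil peptide gene Tff2 (-0.29 ± 0.06 SE, adjusted p = 0.0309). The Muc6 call ended without control replicate 5 (0.0579), and the Tff2 call on leaving out any of 7 single arrays (highest 0.0911, without control replicate 2) and on quantile normalization (0.132). Both calls also ended with the replicate number as a block (Muc6 0.0952, Tff2 0.0831). The same held with control replicate 2 and DKO replicate 4 left out together (Muc6 0.0974, Tff2 0.190). Mean levels of the gastric list ran from 7.44 to 7.71 in control and from 7.32 to 7.57 in DKO. No gene of the goblet, squamous, enterocyte or gastric lists passed as higher in DKO, against 2.08% of all genes. At that share, lists this short would hold few such calls, so nothing follows from their absence. Whether such cells had entered the samples was not tested.

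Vessel and muscle genes followed. Of 7 lymphatic endothelial genes 1 fell, against 0.366% of all genes called lower. An unadjusted limma p under 0.05 was met by 5, against 2958 of all 19938 genes. The gene that fell was the semaphorin receptor gene Nrp2 (-0.32 ± 0.05 SE, adjusted p = 0.00726), while Lyve1 stood at 10.25 ± 0.28 and 10.43 ± 0.23 (SD, n = 5 each). Of the others under 0.05, Prox1, the factor that sets lymphatic identity, differed by -0.30 (adjusted p = 0.150), Pdpn by 0.39 (0.103), Flt4 by 0.23 (0.212) and Mmrn1 by 0.60 (0.300). The Nrp2 call ended with the replicate number as a block (0.0552) and with control replicate 2 and DKO replicate 4 left out together (0.0602). The list mean per array was 8.06 to 8.48 in control and 8.33 to 8.56 in DKO. Of 10 blood endothelial genes 0 passed (1 at an unadjusted p under 0.05), with list means of 9.13 to 9.33 in control and 9.15 to 9.30 in DKO. Of 8 smooth muscle genes 0 passed by limma (1 at an unadjusted p under 0.05), and Acta2 stood at 10.73 ± 0.15 and 10.74 ± 0.09 (SD, n = 5 each).

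Duct and YAP target genes were the lists in which many members passed. Both were known from earlier results on these arrays to be higher in DKO, so their counts are no independent support for a link with the Clca pair. Of 21 measured duct genes 9 rose and 0 fell, against 2.08% of all genes called higher and 0.366% called lower, and the median change was 0.28. Clu, a secreted chaperone, rose by 0.69 ± 0.07 (SE, adjusted p = 0.000878), the ferroxidase gene Cp by 1.05 ± 0.12 (SE, adjusted p = 0.00111) and the keratin gene Krt7 by 1.22 ± 0.14 (SE, adjusted p = 0.00112). The count of called duct genes was 5 with control replicate 2 and DKO replicate 4 left out together, and the calls of Krt8, Pkhd1 and Tspan8 ended on leaving out any of 8, 8 and 6 single arrays. The duct list mean was 9.75 to 9.99 in control and 10.12 to 10.32 in DKO, with no overlap. Among the controls, replicates 1 and 4, which were the high arrays of Clca3a1, also held the highest duct means (9.92 and 9.99, against 9.75 to 9.83). In DKO this did not recur, since replicate 4 had a duct mean of 10.20 inside the range of the other 4. The part of duct cells in the Clca3a1 levels was not tested.

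Of 22 YAP and TAZ targets 9 rose and 0 fell, against 2.08% of all genes called higher and 0.366% called lower. The median change was 0.42, against -0.006 over all genes. Lats2, the kinase that phosphorylates YAP, was the list member whose levels ran closest to Clca3a1 within groups (r = 0.81 over the 10 deviations), and it rose by 0.37 ± 0.06 (SE, adjusted p = 0.0107). That call ended with control replicate 2 and DKO replicate 4 left out together (0.0772). The list mean itself did not follow Clca3a1 within groups (r = 0.10). Of 13 acinar genes 1 fell, against 0.366% of all genes called lower, with 4 at an unadjusted p under 0.05. It was Rbpjl, a subunit of the acinar factor PTF1 (-0.45 ± 0.09 SE, adjusted p = 0.0225). The Rbpjl call ended in 3 single-array omissions, those of control replicate 3 (0.0689), of control replicate 5 (0.0608) and of DKO replicate 4 (0.0562). It also ended with the replicate number as a block (0.0552) and with control replicate 2 and DKO replicate 4 left out together (0.105). The acinar list mean was 12.13 to 12.27 in control and 11.73 to 12.12 in DKO, with a narrow gap and no overlap. The median change of the acinar list was -0.12. Of 11 islet genes 0 passed (3 at an unadjusted p under 0.05), of 12 hepatocyte genes 0 (0), and of 11 macrophage and mast cell genes 0 (3). The changes of the 11 islet genes ran from -0.35 to -0.08, all lower in DKO.

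Pathways tied to Clca genes by earlier work on the family were read last. Human CLCA2 is a p53 target, and of 13 measured p53 targets 0 passed by limma (0 at an unadjusted p under 0.05), with Mdm2 higher by 0.10 ± 0.05 (SE, adjusted p = 0.376). Clca1 is induced by interleukin 13 in airways. Of 13 interleukin 4 and 13 response genes 0 passed by limma (0 at an unadjusted p under 0.05). The smallest p-values were those of Retnla (-0.81 ± 0.40 SE, adjusted p = 0.382) and Stat6 (0.12 ± 0.07 SE, adjusted p = 0.429). Endothelial Clca proteins are reported to bind beta-4 integrin, and Itgb4 was 0.14 ± 0.06 (SE) higher without passing (adjusted p = 0.323). Of the 5 measured genes of that list 1 rose, against 2.08% of all genes called higher, and 3 had an unadjusted p under 0.05 (Lama5, Itgb4 and Itga6). The gene that rose was the laminin chain gene Lama5 (0.71 ± 0.11 SE, adjusted p = 0.00878), whose call ended with control replicate 2 and DKO replicate 4 left out together (0.0630).

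**Figure D3:**
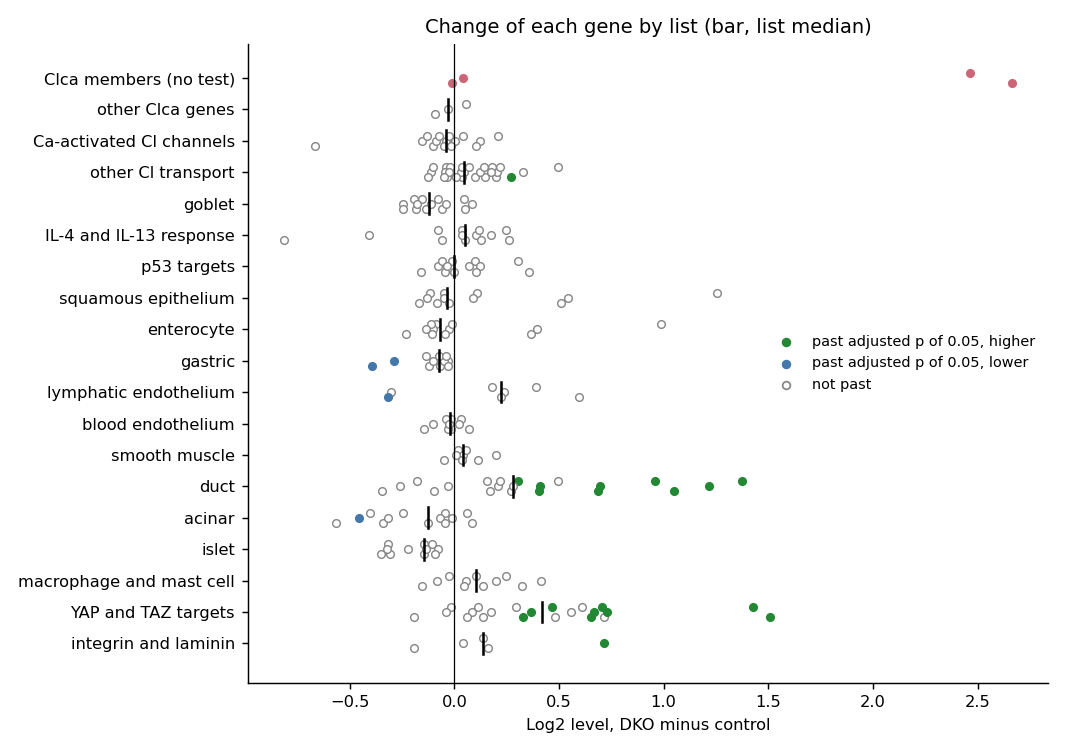
Log2 difference, DKO minus control, of each gene in the lists (open, not past the limma test; green, higher; blue, lower; bar, list median), with the 4 Clca genes on top; the hepatocyte genes, which vary with DKO replicate 1, are not drawn. The Clca pair lies to the right of every gene drawn. Genes past the test in the higher direction cluster in the duct (9 of 21) and YAP target (9 of 22) lists, against 2.08% of all genes.

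The spread of the pair within groups was wide and was not used to choose them. The SD of Clca3a1 over the control arrays, 0.66, lay at the 99.4 percentile of the control SDs of all genes, and that of Clca3a2, 0.61, at the 99.3 percentile. In DKO their SDs of 0.40 and 0.43 lay at the 96.7 and 97.0 percentiles. Clca1 and Clca2 had control SDs at the 34.5 and 29.9 percentiles. Control replicate 1 was 0.98 above its group mean in Clca3a1 and DKO replicate 4 was 0.70 above its own.

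Genes most like Clca3a1 were ranked in 2 ways, both as a description. Over the log2 levels of all 10 arrays, where groups stand apart and r mostly restates the group difference, the 8 highest were Clca3a2 (r = 0.99), Nudt4 (0.98), Tjp1 (0.98), St14 (0.97), Ptprk (0.97), Lats2 (0.97), Arap2 (0.97) and Cblc (0.96). All 7 beside Clca3a2 were called higher in DKO. The calls of Nudt4, Tjp1 and Ptprk ended on leaving out any of 5, 6 and 10 single arrays, and those of St14, Lats2 and Cblc with control replicate 2 and DKO replicate 4 left out together. Among these 7 are the tight junction scaffold gene Tjp1, the epithelial membrane protease gene St14 and the receptor phosphatase gene Ptprk. Ranked by deviations of each array from its group mean, which removes the group difference, the 8 highest were Clca3a2 (r = 0.96), Cars (0.94), Pabpc1 (0.93), Cuzd1 (0.93), Adm2 (0.93), Mkrn1 (0.92), Sesn2 (0.92) and Nudt4 (0.92). Of the 7 beside Clca3a2 only Nudt4 was called between groups, and it alone joined Clca3a2 in both rankings.

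Several of the second set are genes that cells raise when amino acids run short, through the factor ATF4. Sesn2, a sestrin that restrains the growth kinase mTORC1, stood at 9.08, 7.84, 7.81, 8.21 and 7.84 across control replicates 1 to 5 and 8.64, 8.21, 8.25, 8.78 and 8.42 across DKO replicates 1 to 5. Its highest arrays in each group, control replicate 1 and DKO replicate 4, were those of Clca3a1, while the groups overlapped (difference 0.30 ± 0.23 SE, adjusted p = 0.569). Chac1, a glutathione-degrading enzyme gene, showed the same array order at the top, with 10.67, 7.69, 8.31, 9.47 and 8.47 across control replicates 1 to 5 and 9.34, 9.54, 9.19, 9.78 and 9.34 across DKO replicates 1 to 5. Cars, the cysteine tRNA synthetase gene, differed between groups by 0.03 ± 0.10 (SE, adjusted p = 0.919).

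A list of 46 amino acid response and ATF4 target genes was therefore written after the ranking was seen, and gets no test. Of its 44 measured members 30 had an r above 0.5 with Clca3a1 over the deviations, against 8.54% of all genes, and the median r was 0.67, against -0.07 over all genes. Genes of the ranking, such as Cars, Adm2 and Sesn2, are in the list. Its r values are thus partly set by that choice, and nothing follows from their excess over all genes. The 6 highest were Cars (0.94), Adm2 (0.93), Sesn2 (0.92), the serine tRNA synthetase gene Sars (0.91), Chac1 (0.90) and the amino acid transporter gene Slc38a2 (0.90). At the other end Fgf21 (-0.67), Ddit4 (-0.30), Phgdh (-0.12) and Atf3 (-0.01) did not follow it. The mean of the list correlated with Clca3a1 over the deviations at r = 0.92 (Spearman rho = 0.81), at 0.92 within control and 0.92 within DKO (n = 5 each). Control replicate 1 and DKO replicate 4, the arrays with the largest Clca3a1 deviations, weighed heavily in this, and leaving out such arrays tends to lower r. Without both, r of the list mean was 0.64 over 8 arrays, and 19 of 44 members had an r above 0.5, against 14.5% of all genes.

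Between groups the same list had a median change of 0.03, and 10 of 44 members had an unadjusted limma p under 0.05, against 2958 of all 19938 genes. Called were 2 of 44 members, both higher (4.55%, against 2.08% of all genes). These were the stress factor gene Atf3 (1.01, adjusted p = 0.00284) and the stress-induced gene Nupr1 (0.65, adjusted p = 0.0178), whose call ended without control replicate 3 (0.0551). By the same measure the duct list mean gave r = 0.39 over 10 arrays and 0.65 without control replicate 1 and DKO replicate 4, where the amino acid response list gave 0.64. Those 2 arrays had the largest Clca3a1 deviations, and leaving out such arrays narrows the range and tends to lower r. The amino acid list was written after the ranking over these 10 arrays was seen and holds genes of it. Its higher r than that of the duct list over 10 arrays was thus partly set by that choice, and nothing follows from it. What else entered was not tested. With single arrays left out, r was 0.83 to 0.95 for the amino acid list, under the same limit, and 0.28 to 0.57 for the duct list. The other chloride transport list gave 0.82 over 10 arrays and -0.28 without the 2, and the gastric list 0.58 and -0.50. Slc26a9, a member of the chloride transport list, read 10.37 in control replicate 1 and 10.51 in DKO replicate 4. In the other arrays it read 7.64 to 8.47. The gastric list mean was also highest in its group in each of those 2 arrays (7.71 and 7.57). What else set these 2 arrays apart was not tested. The integrin and laminin list gave -0.73 and -0.45, the other Clca genes -0.60 and -0.18, YAP targets 0.10 and -0.14, acinar genes -0.13 and 0.09, and hepatocyte genes -0.18 and 0.07. Islet genes gave -0.41 and -0.80, the largest r in size of any list without the 2 arrays. The remaining lists lay between -0.39 and 0.50 over 10 arrays and between -0.49 and 0.28 without the 2. In all, 19937 genes and 20 lists were set against Clca3a1, and no p is given for a correlation picked as the highest of so many.

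**Figure D4:**
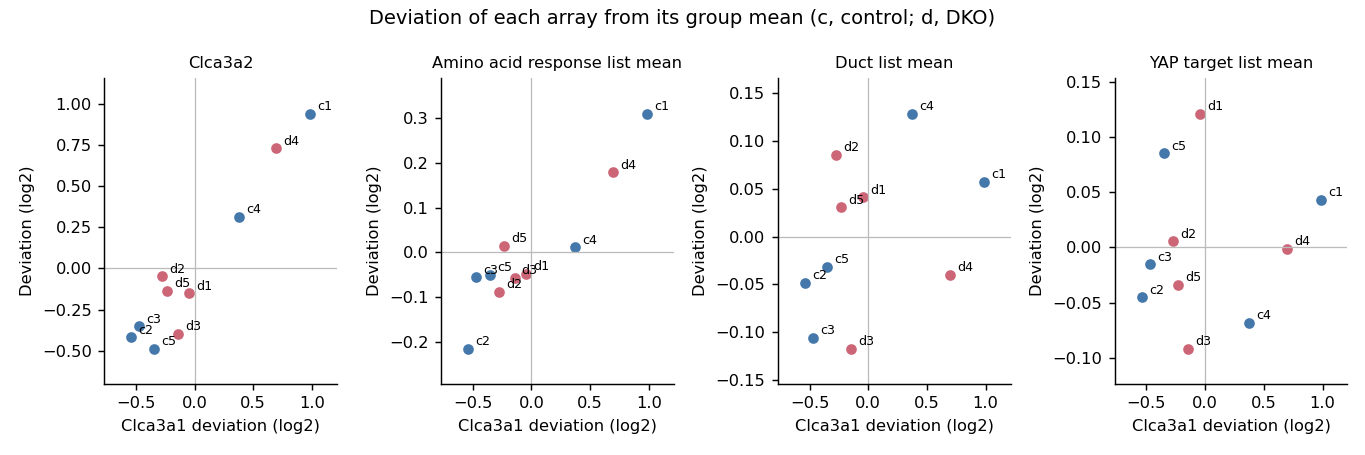
Deviation of each array from its own group mean (log2) for Clca3a1 on the horizontal axis against Clca3a2 and against the means of 3 gene lists (c, control; d, DKO; number, replicate). The amino acid response list, written after the likeness ranking was seen, rises with Clca3a1 (r = 0.92), with control replicate 1 and DKO replicate 4 at the upper right. The duct and YAP target means give r = 0.39 and 0.10. Without those 2 arrays r is 0.64 for the amino acid list and 0.65 for the duct list.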

How the data were processed

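Total RNA of 10 mouse pancreas samples was measured. Per the submitters' processing notes the authors used Affymetrix Expression Console; its version, summarization, normalization and genome build were not stated there or in the labels. The deposited values are log2 levels per transcript cluster, and were used without further normalization or filter. Of 35556 clusters 21789 carried 1 symbol in the platform annotation, of which 21698 matched the RefSeq gene table (GRCm38.p6) by gene ID. The cluster with the highest mean over 10 arrays stood for a gene, leaving 19938.

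The 2 groups were set against each other in limma 3.58.1 (R 4.3.3; lmFit, eBayes, two-sided, Benjamini-Hochberg over all genes, threshold 0.05), and adjusted p-values and SEs of log2 differences are from that fit, which was tested on simulated data. The 5 arrays per group limit the precision. The Clca genes and all lists were chosen with earlier results of these data known. Named were the Clca genes, called neighbours and the nearest 2 on each side, up to 3 genes of each list by p and the 8 most like Clca3a1 by each measure. The cell type markers Cpa1, Muc2, Krt5, Alpi, Lyve1 and Acta2 were chosen after their values were seen. So were Itga6, Prox1, Flt4, Mmrn1, Fabp1, Fabp2, Apoa4, Ano1, Slc26a9, Kyat3, Lmo4, Bcl10, Clic1 and the amino acid response genes beyond those 8. The Clca3a1 promoter is from RefSeq, and those of the other Clca genes are not reported here. Alternatives covered normalization, dim genes, variance, clusters, single arrays, the replicate number and Xist. Clusters with several symbols entered no test.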

Additional observations from a re-analysis of the deposited data

Results flagged for a closer look

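Arrays that stood apart were looked for in 16 gene groups (8 genes in control and in DKO), by the gap of the end array to its neighbour as a share of the group's range. About 1 in 20 such groups passes by chance. The DKO arrays of Clca3a1 met the limit, with replicate 4 at 10.10 and the next at 9.36, a gap of 0.765 of the range against a critical value of 0.71. Control replicate 2 was low in Clca2 (4.76, the next 4.91; 0.752 of the range). Control replicate 1 was low in Clca4b (3.97, the next 4.11; 0.835 of the range). Both of the latter genes read at background.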

How the results depend on the processing

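The differences of the 4 Clca genes moved by less than 1 SD between replicates under every alternative run, and those of Clca3a1 and Clca3a2 stayed higher in DKO (2.36 to 2.91 and 2.18 to 2.70). Single-array omissions gave 2.49 to 2.91 for Clca3a1, 2.28 to 2.70 for Clca3a2, -0.04 to 0.02 for Clca1 and 0.01 to 0.08 for Clca2. Over all genes 487 were called, and 260 to 433 without single arrays. Fewer were called at an adjusted p of 0.01 (163) or with control replicate 2 and DKO replicate 4 left out together (151), an alternative chosen after seeing the data, as was the Xist covariate. Among higher and lower calls the split was 414 to 73 as deposited, 321 to 125 after quantile normalization and 271 to 103 after subtraction of medians.

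Deviations of same-numbered control and DKO arrays correlated at -0.27 to 0.29 over genes. The labels state no pairing. Arrays of different numbers were not compared in this way, so these values cannot say whether same-numbered arrays were paired. With the replicate number as a block, 178 genes were called in all and 15 in the fixed lists, against 24 without it. The fixed lists held 12 calls at 0.01, 12 with the 2 arrays left out together, and 17 to 22 without single arrays. Under the block, and again with the 2 arrays left out together, they held 0 lower calls, against 4 in the main fit. Around the Clca block 1 gene was called, and 2 without the dimmest 25% or 50% of genes or with trended and robust variance; single-array omissions gave 1 to 2. Of 106 single genes followed, 18 lost a call and 7 gained one somewhere, and none reversed with a call. The likeness of Clca3a2 to Clca3a1 ranged from 0.92 to 0.98 without single arrays, was 0.81 by ranks and 0.82 without control replicate 1 and DKO replicate 4. Of the 8 genes ranked highest by deviations 0 stayed among the 8 highest without those 2 arrays, and 1 to 7 without single arrays, so that ranking is loose.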
